A study of Mus musculus with 8 samples.

Results

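Apolipoproteins are the protein parts of the lipoprotein particles that carry fat and cholesterol in blood and lymph. All probes of 10 apolipoprotein genes, Apoa1, Apoa2, Apoa4, Apob, Apoc1, Apoc2, Apoc3, Apoe, Apoh and Apom, were followed across every array of the series. Every probe with these symbols was taken whatever its values, but the genes were chosen with earlier results of these data known. These genes had 16 probes among the 46089 probes of the array table, which names 22446 genes. Of them, 14 probes of 9 genes were above background in both arrays of at least 1 group and were tested. The only Apoh probe and the dimmer of the 2 Apom probes did not.

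The cells were primary sorted mouse medullary thymic epithelial cells (mTECs), divided by their surface CD80 into a CD80low and a CD80high population. The mice were of 2 genotypes: TEC-specific Hipk2 knockout mice, which lack the kinase Hipk2 in thymic epithelium, and mating wildtype controls, called control below. Each of the 4 groups, control CD80low, control CD80high, knockout CD80low and knockout CD80high, was measured on 2 arrays labelled as biological replicates. The promoter driving the deletion, the age of the mice and the number of animals behind a sample are not given in the sources used here, so p-values measure the spread between these samples only.

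Background is needed to read the values. The liver and the small intestine make most apolipoproteins. Apoa1 and Apoa2 build high-density lipoprotein, Apoa4 and Apob travel on the particles that leave the gut, the C apolipoproteins tune lipases and uptake, and Apoe binds the receptors that clear remnants. Mature mTECs, which carry much CD80, transcribe many genes that belong to other tissues and show their products to developing T cells. The regulator Aire acts in the mature cells and drives part of this display.

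Between 46.4% and 51.3% of the probes lay above background on each array, and replicates of a group correlated with r between 0.967 and 0.988 across probes. The number of arrays, 2 in each group, limits the precision throughout. The labels of the 2 populations were borne out by their own genes: the brightest Aire probe was 4.51 higher on the log2 scale in CD80high than in CD80low control cells, and the brightest Cd80 probe 4.82 higher (limma, adjusted p 9.39e-07 and 3.32e-06). Of the 4 Hipk2 probes, 2 were tested, and neither passed between genotypes, with log2 changes of -0.12 and -0.51 in CD80low cells and 0.24 and -0.19 in CD80high cells. Where these probes lie relative to the deleted part is not known here, so they check nothing about the genotype labels. Both CD80low arrays numbered 1 stood apart in genes of other cells: 7 thymocyte genes summed to 9597 and 9899 intensity units there, against 1347 and 1506 in the CD80low arrays numbered 2. The 3 erythroid genes measured summed to 8698 and 4890 against 390.4 and 542.8. The apolipoprotein results were therefore also computed without those 2 arrays.

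Promoters of 5 of the genes are shown because 3 of the genes were far higher in CD80high cells (Apoa1, Apoa4 and Apoa2), 1 was moderately higher (Apoc2) and 1 was lower (Apoe), with Apoc2 and Apoe close together on chromosome 7. Each is the 250 bases before the first listed RefSeq start, read 5′ to 3′ on the gene's strand, in build GRCm38.p6. Apoa2 has 2 listed starts and Apoe has 3, and the windows of their other starts were not read. The RefSeq promoter table held 8 of the 10 genes. Capitals mark matches, on either strand, to 4 motifs: the nuclear receptor half-site AGGTCA, the HNF4 core CAAAGTCCA, the TATA box TATAAA and the GC box GGGCGG. None of the 4 motifs overlaps another in these windows.
Apoa1, chr9:46228380-46228629, plus strand: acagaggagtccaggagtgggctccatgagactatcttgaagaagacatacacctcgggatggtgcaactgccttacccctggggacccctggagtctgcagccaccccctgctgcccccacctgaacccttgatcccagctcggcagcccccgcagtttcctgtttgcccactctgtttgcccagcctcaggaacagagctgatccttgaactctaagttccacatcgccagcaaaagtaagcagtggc
Apoa4, chr9:46240594-46240843, plus strand: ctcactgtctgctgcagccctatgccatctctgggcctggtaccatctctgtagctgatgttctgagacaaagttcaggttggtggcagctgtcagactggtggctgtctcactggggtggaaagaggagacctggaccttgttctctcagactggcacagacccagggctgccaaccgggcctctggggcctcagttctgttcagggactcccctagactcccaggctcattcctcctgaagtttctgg
Apoa2, chr1:171224804-171225053, plus strand: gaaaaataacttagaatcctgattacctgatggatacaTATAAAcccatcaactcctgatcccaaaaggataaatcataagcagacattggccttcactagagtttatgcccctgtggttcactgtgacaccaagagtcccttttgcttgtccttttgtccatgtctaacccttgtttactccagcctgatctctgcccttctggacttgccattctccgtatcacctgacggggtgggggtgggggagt
Apoc2, chr7:19677942-19678191, minus strand: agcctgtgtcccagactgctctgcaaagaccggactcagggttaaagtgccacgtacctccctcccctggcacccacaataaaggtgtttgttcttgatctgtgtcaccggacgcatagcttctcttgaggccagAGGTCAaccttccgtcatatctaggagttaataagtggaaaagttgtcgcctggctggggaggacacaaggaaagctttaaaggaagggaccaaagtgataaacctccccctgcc
Apoe, chr7:19699189-19699438, minus strand: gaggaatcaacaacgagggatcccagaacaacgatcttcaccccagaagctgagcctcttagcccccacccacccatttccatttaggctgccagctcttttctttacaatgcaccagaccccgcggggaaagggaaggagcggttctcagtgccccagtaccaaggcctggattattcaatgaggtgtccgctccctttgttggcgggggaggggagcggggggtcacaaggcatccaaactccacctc

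The Apoa2 window held TATAAA 212 bases before the start, and the Apoc2 window held AGGTCA 115 bases before it. No letters of the 4 motifs were found in the Apoa1, Apoa4 and Apoe windows. Among 27025 mouse promoters of the same length, 13.8% held AGGTCA, 0.381% CAAAGTCCA, 13% TATAAA and 32.9% GGGCGG. The matches describe these letters only.

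The first comparison asked how the CD80high and CD80low populations differ. Expression values below are log2 normalised intensities, and values of different probes are not set against each other. In control cells 6 of the 9 tested genes were higher in CD80high cells (Apoa4, Apoc3, Apoa1, Apoa2, Apob and Apoc2) and 2 were lower (Apoe and Apoc1), at an adjusted p under 0.05 on the brightest tested probe. By probe, 9 of 14 were higher and 3 lower, where 18.2% of all 24208 tested probes were higher and 18% lower, 36.1% together. Knockout cells gave 6 genes higher and 1 lower, or 9 probes higher and 2 lower, against 17.9% and 17.4% of all tested probes, 35.3% together. On their brightest probes Apoa2, Apob and Apom passed the background filter only through CD80high arrays. So did the dimmer Apoa2 and Apoc2 probes and the dimmest Apoa4 probe. The filter favours higher values in CD80high cells for these probes, which the counts above include. With no filter, 9 of all 16 probes were higher and 2 lower in control cells (8.52% and 7.9% of 46089 probes), and 8 and 2 in knockout cells (8.33% and 7.51%). Since the samples are bulk populations, fewer cells of a type and less RNA per cell cannot be told apart in any of these differences.

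**Figure D1:**
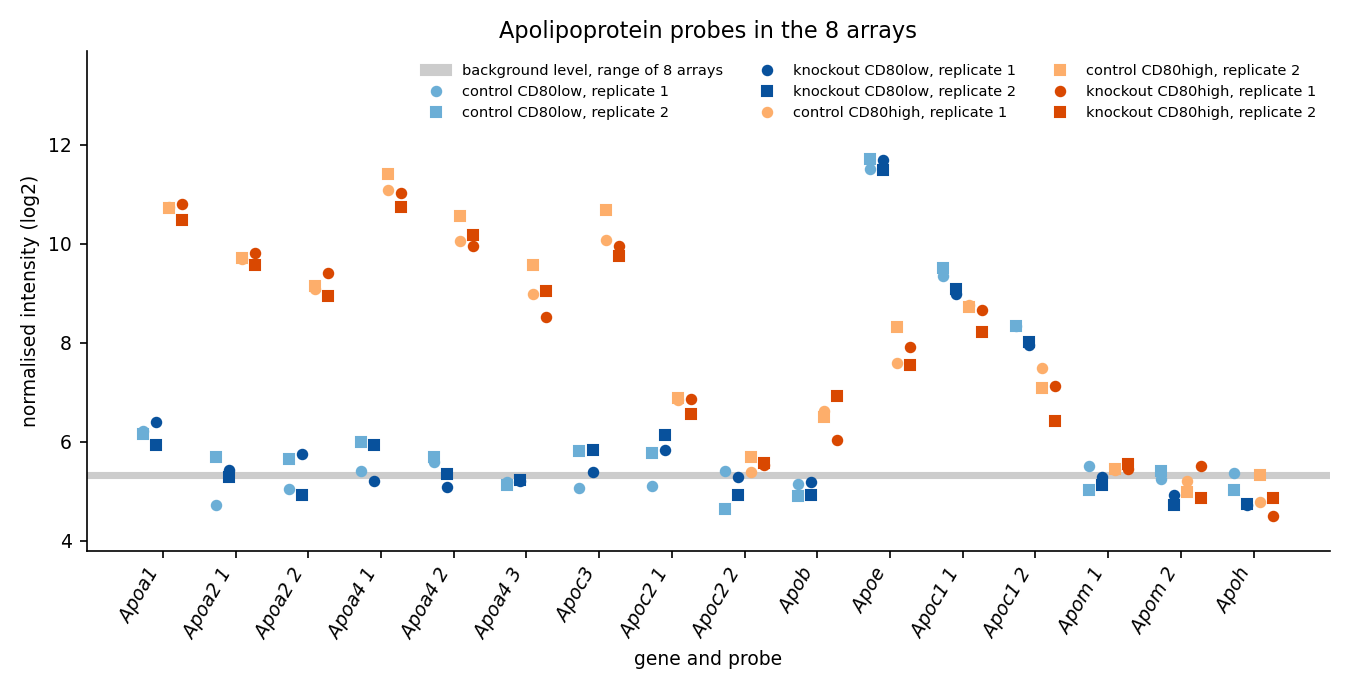
Log2 normalised intensity of the 16 probes of the 10 apolipoprotein genes on each of the 8 arrays, coloured by group, with circles for replicate 1, squares for replicate 2 and a grey band for the background; probe 1 of a gene is its brightest. On their brightest probes, Apoa1, Apoa2, Apoa4 and Apoc3 lie between 9.58 and 11.4 in all CD80high arrays and between 4.71 and 6.39 in all CD80low arrays, while Apoe lies between 11.49 and 11.71 in CD80low and between 7.55 and 8.32 in CD80high arrays.

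Apoa4, Apoc3, Apoa1 and Apoa2 had the widest gaps among the members. Apoa4, which the intestine secretes on chylomicrons, read 5.40 and 6.00 in control CD80low and 11.09 and 11.40 in control CD80high arrays. In knockout cells its brightest probe read 5.21 and 5.93 in CD80low and 11.03 and 10.74 in CD80high arrays. Every CD80high array thus lay far above every CD80low array. Apoa4 was 46.6-fold higher in control CD80high cells (log2 change 5.54, SE 0.289, adjusted p 1.23e-06), the sixth largest rise among all tested probes, and 39.8-fold higher in knockout cells (log2 change 5.32, adjusted p 1.21e-06). Only 1 of the 2 knockout CD80low arrays was above background, so the knockout fold is less sure than its p-value. The other 2 Apoa4 probes rose as well, by 4.68 and 4.12 on the log2 scale in control cells. For the dimmest of the 3, at background in all CD80low arrays, the rise is a lower bound, at least 15.3-fold in control and at least 10.8-fold in knockout cells.

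Apoa1, the main protein of high-density lipoprotein, was above background in all 8 arrays. It read 6.22 and 6.16 in control CD80low arrays against 10.75 and 10.73 in control CD80high arrays. Knockout cells gave 6.39 and 5.94 against 10.80 and 10.48. The groups did not overlap, and both control replicates lay close together in each population. The rise was 23.4-fold in control cells (log2 change 4.55, SE 0.217, adjusted p 9.39e-07) and 22.3-fold in knockout cells (log2 change 4.48, adjusted p 8.89e-07).

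Apoa2, the second protein of high-density lipoprotein, read 4.71 and 5.69 in control CD80low and 9.70 and 9.71 in control CD80high arrays on its brighter probe. In knockout cells the same probe read 5.43 and 5.29 against 9.82 and 9.58. The CD80low readings were near the background, which only 1 of the 2 arrays passed in each genotype, so the fold is less sure than its p-value. The rise was 22.7-fold in control (log2 change 4.51, adjusted p 2.33e-06) and 20.3-fold in knockout cells (log2 change 4.34, adjusted p 2.92e-06). Its dimmer probe rose by 3.77 and 3.84 on the log2 scale.

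Among the C apolipoproteins the direction differed from gene to gene. Apoc3, an inhibitor of lipoprotein lipase and of remnant clearance, read 5.07 and 5.81 in control CD80low and 10.07 and 10.68 in control CD80high arrays. Knockout cells read 5.38 and 5.84 against 9.96 and 9.76. All CD80high arrays were higher than all CD80low arrays. The rise was 30.6-fold in control (log2 change 4.94, SE 0.3, adjusted p 1.93e-06) and 19-fold in knockout cells (log2 change 4.25, adjusted p 4.04e-06). Only 1 of the 2 control CD80low arrays was above background, so the control fold is less sure than its p-value.

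Apoc2, the cofactor that lipoprotein lipase needs, read 5.10 and 5.78 in control CD80low and 6.85 and 6.88 in control CD80high arrays, and 5.83 and 6.13 against 6.87 and 6.56 in knockout cells. Its brighter probe rose 2.68-fold in control (log2 change 1.42, SE 0.253, adjusted p 0.00153) and 1.67-fold in knockout cells (log2 change 0.74, adjusted p 0.044). Only 1 of the 2 control CD80low arrays was above background, which makes the control fold less sure. The knockout call was not stable: it ended without either knockout CD80high replicate (adjusted p 0.216 without 1, 0.0663 without 2), without either knockout CD80low replicate (0.195 and 0.0575), without either control CD80high replicate (0.0698 each) and without both CD80low arrays numbered 1 (0.0912). The dimmer probe changed in the same direction, by 0.52 and 0.44 on the log2 scale, but did not pass (adjusted p 0.16 and 0.23). It read close to background, with means of 5.53 in control and 5.54 in knockout CD80high arrays. Of its CD80low arrays, 1 in control and 0 in knockout cells were above background. The Apoc2 calls thus rest on 1 probe.

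Apoc1, which restrains lipid transfer and receptor uptake of lipoproteins, was above background in all arrays of both populations. Its brighter probe read 9.34 and 9.51 in control CD80low and 8.77 and 8.72 in control CD80high arrays, and 8.98 and 9.08 against 8.66 and 8.22 in knockout cells. CD80high arrays were the lower ones in both genotypes. In control cells it fell by 0.68 on the log2 scale (SE 0.208, adjusted p 0.027), and in knockout cells the change of -0.59 did not pass (adjusted p 0.0507). The dimmer probe fell by 1.05 in control (adjusted p 0.00945) and by 1.21 in knockout cells (adjusted p 0.00446). The control call of the brighter probe ended without control CD80high replicate 1 (adjusted p 0.101), without control CD80high replicate 2 (0.126) and without control CD80low replicate 2 (0.107). Without knockout CD80high replicate 1, the knockout change was -0.81 and passed (0.0363).

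Apoe, the receptor ligand of remnant particles, ran opposite to the A apolipoproteins. It read 11.51 and 11.71 in control CD80low and 7.58 and 8.32 in control CD80high arrays, and 11.70 and 11.49 against 7.91 and 7.55 in knockout cells. All 8 arrays were above background, and the populations did not overlap. Apoe was 12.6-fold lower in control CD80high cells (log2 change -3.66, SE 0.264, adjusted p 4.68e-06) and 14.5-fold lower in knockout CD80high cells (log2 change -3.86, adjusted p 3.33e-06). Ordered from the lowest change, it ranked 30 of 24208 tested probes in control cells and 24 in knockout cells.

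Apob, the backbone of chylomicrons and very-low-density lipoprotein, read 5.15 and 4.91 in control CD80low and 6.61 and 6.49 in control CD80high arrays. Knockout cells read 5.18 and 4.93 against 6.04 and 6.93. No CD80low array was above background, so only bounds hold: Apob was at least 2.3-fold higher in control CD80high cells (log2 change 1.52, adjusted p 0.00183) and at least 2.19-fold higher in knockout CD80high cells (log2 change 1.43, adjusted p 0.0028). Apom, a carrier of sphingosine-1-phosphate on high-density lipoprotein, read 5.02 to 5.55 on its brighter probe, close to background. Of its CD80low arrays, 1 in control and 0 in knockout cells were above background. Its log2 changes of 0.18 and 0.30 did not pass (adjusted p 0.539 and 0.304), and so near background they do not show a stable gene. Apoh, beta-2-glycoprotein I of plasma, read 4.49 to 5.37 and was above background on single arrays of 2 groups only.

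**Figure D2:**
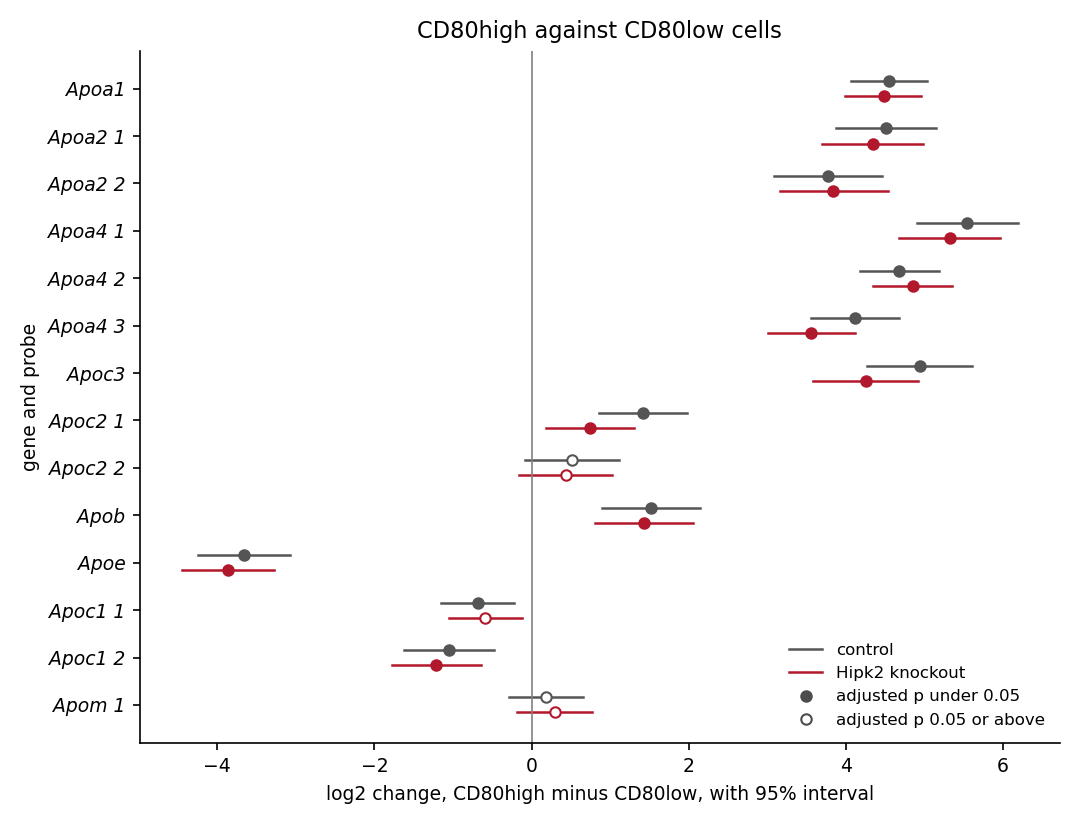
Log2 change of each tested apolipoprotein probe between CD80high and CD80low cells, with its 95% interval, in control and in knockout cells; filled points had an adjusted p under 0.05 and open points did not, and probe 1 of a gene is its brightest. Apoa4, Apoc3, Apoa1 and Apoa2 sit between 3.56 and 5.54, Apob and Apoc2 between 0.44 and 1.52, and Apoe at -3.66 and -3.86.

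The size of these changes depended on the processing. On the deposited intensities, with neither background correction nor the second normalisation, the control log2 changes were 4.38 for Apoa4, 3.70 for Apoa1, 3.64 for Apoc3, 3.08 for Apoa2, 0.74 for Apoc2, 0.71 for Apob and -3.32 for Apoe. Each of these 7 kept its direction and its call. Probes whose 2 populations did not overlap numbered 12 of 14 in control and 14 of 14 in knockout cells, where 70.2% and 69% of all tested probes did not overlap.

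Levels of other cell types' genes moved with the same contrast, in which 18.2% of all tested probes were higher and 18% lower in control cells. The 13 macrophage and dendritic cell genes measured summed to 1379 and 1359 in control CD80low and 1714 and 1747 in knockout CD80low arrays. In CD80high arrays they summed to 8429 and 7516 in control and 8194 and 8056 in knockout cells. Of the 11 tested, 8 were higher in CD80high cells and 0 lower in both genotypes, led by Fcer1g, Lyz2 and Mrc1, with log2 changes of 3.56, 3.49 and 3.77 in control cells. The summed intensity of fibroblast genes was lower in CD80high arrays. The 6 measured summed to 10300 and 8440 in control CD80low, 10900 and 9585 in knockout CD80low, 1533 and 2055 in control CD80high, and 1548 and 1851 in knockout CD80high arrays. Of these 6, 5 were lower in control CD80high cells, where Dcn changed by -2.55 on the log2 scale, and 3 in knockout cells. The summed intensity of thymocyte genes was lower as well. The 7 measured summed to 746.3 and 563.6 in control CD80high and 689.7 and 600.7 in knockout CD80high arrays, below all 4 CD80low arrays. Of 5 tested, 1 passed in each genotype (20%), near the 18% and 17.4% of all tested probes that were lower. It was Cd8b1 (log2 change -2.29 in control cells, adjusted p 0.00104), and the control changes ran from -3.08 to 0.04. Cortical thymic epithelial genes did not share one direction. Their sum over 6 genes was 5338 and 3585 in control CD80low, 7198 and 3927 in knockout CD80low, 6840 and 7823 in control CD80high and 6241 and 8373 in knockout CD80high arrays. Of the 6, 1 was higher and 2 were lower in control cells (Ccl25 1.19, Cxcl12 -3.03 and Prss16 -1.66), and 1 was higher and 3 lower in knockout cells. Genes of mTECs themselves also moved in both directions. Of 10 tested, 2 only through CD80high arrays, 5 were higher and 3 lower in each genotype (50% and 30%). In control cells Krt5 changed by -2.62 and Ccl21a by -1.98, while Aire changed by 4.51 and Cd80 by 4.82. The part of any of these cell types in the apolipoprotein differences was not tested. Without both CD80low arrays numbered 1, where thymocyte and erythroid genes were high, the control log2 changes were 5.24 for Apoa4, 4.56 for Apoc3, 4.58 for Apoa1, 4.02 for Apoa2 and -3.76 for Apoe.

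Gene order gave 2 clusters to compare, read from the RefSeq annotation of GRCm38.p6. On chromosome 9, Apoa1, Apoc3, Apoa4 and Apoa5 follow each other between Sik3 and Zpr1. Apoa1, Apoc3 and Apoa4 all rose in CD80high cells, whereas Sik3 (log2 change -0.21, adjusted p 0.453) and Zpr1 (-0.02, adjusted p 0.93) did not pass in control cells. Apoa5, an activator of lipoprotein lipase that liver makes, read 4.51 to 5.34 and was not tested. On chromosome 7, Apoc2, Apoc4, Apoc1 and Apoe lie in that order, with Tomm40 next to Apoe. Apoc2 and Apoc4 rose, and their neighbours Apoc1 and Apoe fell in control cells. Apoc4 read 4.72 and 5.20 in control CD80low and 7.57 and 7.43 in control CD80high arrays, at least 4.46-fold higher (adjusted p 0.000244). Of the flanking genes, Tomm40 changed by 0.01 (adjusted p 0.968), and Clptm1, beyond Apoc2, rose by 0.70 in control (adjusted p 0.0204) and by 0.96 in knockout cells (adjusted p 0.00437). Apoa2 on chromosome 1 has Tomm40l and Fcer1g as neighbours. Fcer1g is an Fc receptor chain of myeloid cells and a gene of the macrophage list above. In control cells Tomm40l had a log2 change of -0.45 (adjusted p 0.137) and Fcer1g of 3.56 (adjusted p 1.64e-06). In knockout cells Tomm40l changed by -0.62 and passed (adjusted p 0.0483), and Fcer1g changed by 4.12 (adjusted p 8.99e-07).

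**Figure D3:**
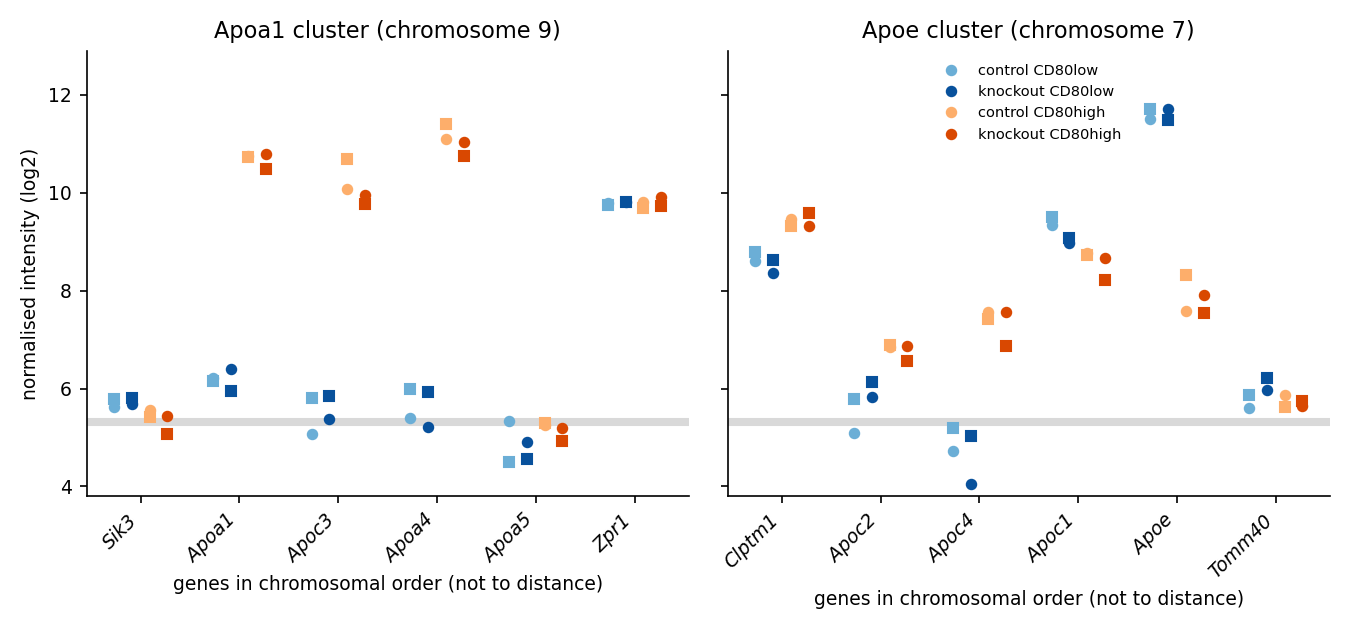
Log2 normalised intensity of the genes of the chromosome 9 and chromosome 7 apolipoprotein clusters in annotation order, with circles for replicate 1 and squares for replicate 2 of each group and a grey band for the background. Apoa1, Apoc3 and Apoa4 are high in CD80high arrays between Sik3 and Zpr1, whose changes did not pass, and in the chromosome 7 cluster Apoe lies between 7.55 and 8.32 in CD80high and between 11.49 and 11.71 in CD80low arrays.

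Likeness over the 8 arrays was measured with Pearson's r between the brightest tested probes, as a description, since the arrays fall into 2 populations and many genes share that step. Apoa4 was the gene most like Apoc3 of 14767 (r 0.997), and Apoc3 ranked 24 for Apoa4. The 3 genes most like Apoa4 were Arg2, Rad50 and Orm1 (each r 0.999), and those most like Apoa2 were Cpne6, Cfap58 and Gdf3 (each r 0.999). For Apoe they were Bace1 (0.997), Cyp2d22 (0.996) and Ccl21c (0.995), while its neighbour Apoc1 ranked 2859 (0.846). Apoc2 was most like Gip (0.989), and Apoc1 was most like Krt19 (0.981).

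The second comparison asked what loss of Hipk2 changed. No apolipoprotein gene passed between knockout and control cells, where 1 of 24208 probes, 0.00413%, passed in CD80low cells, in CD80high cells and in the average of both. With no filter 0 of the 16 apolipoprotein probes passed, and 1 of 46089 (0.00217%) did in each of these 3 comparisons. An unadjusted limma p below 0.05 was reached by 0 apolipoprotein probes in CD80low cells, by 0 in CD80high cells and by 2 in the average, both of Apoc1, against 1643, 379 and 1187 of all tested probes. In CD80low cells the changes ran from -0.42 to 0.54 on the log2 scale, and 7 of 14 probes were below 0. In CD80high cells they ran from -0.52 to 0.06, and 10 of 14 were below 0. Some genes have several of these probes, and by gene 5 of 9 and 7 of 9 were below 0. The median change of all tested probes was 0.01 in CD80low and 0 in CD80high cells, and their share below 0 was not counted. Groups did not overlap for 5 of 14 probes in CD80low cells and 3 of 14 in CD80high cells, where 31.7% and 28.3% of all tested probes did not overlap. An exact permutation test of a single value, 2 arrays against 2, cannot give a p under 0.333.

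Apoc1 had the lowest unadjusted p of the members in the average over both populations. On its brighter probe all 4 knockout arrays were below the control arrays of the same population, 8.98 and 9.08 against 9.34 and 9.51 in CD80low and 8.66 and 8.22 against 8.77 and 8.72 in CD80high cells. The averaged change was -0.35 (95% interval -0.68 to -0.02, unadjusted p 0.0381, adjusted p 0.993). The dimmer probe gave -0.43 (95% interval -0.83 to -0.02, adjusted p 0.997). Neither passes over all probes.

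The remaining members had changes of either sign. Among the tested members Apoc2 had the highest value in CD80low cells, 0.54 (SE 0.253, 95% interval -0.02 to 1.1, adjusted p 0.752), and changed by -0.15 in CD80high cells. Apoc3 had the lowest value in CD80high cells, -0.52 (95% interval -1.19 to 0.15, adjusted p 1), and changed by 0.17 in CD80low cells. Apoa4 changed by -0.36 in CD80high cells (95% interval -1.01 to 0.28), with 11.03 and 10.74 in knockout against 11.09 and 11.40 in control arrays. Apoa1 changed by -0.03 and -0.10, with intervals of -0.51 to 0.45 and -0.59 to 0.38. Apoe changed by -0.02 in CD80low cells (95% interval -0.6 to 0.57) and -0.22 in CD80high cells (-0.81 to 0.37). These intervals leave room for changes of either sign, so the genotypes are not shown to be alike.

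**Figure D4:**
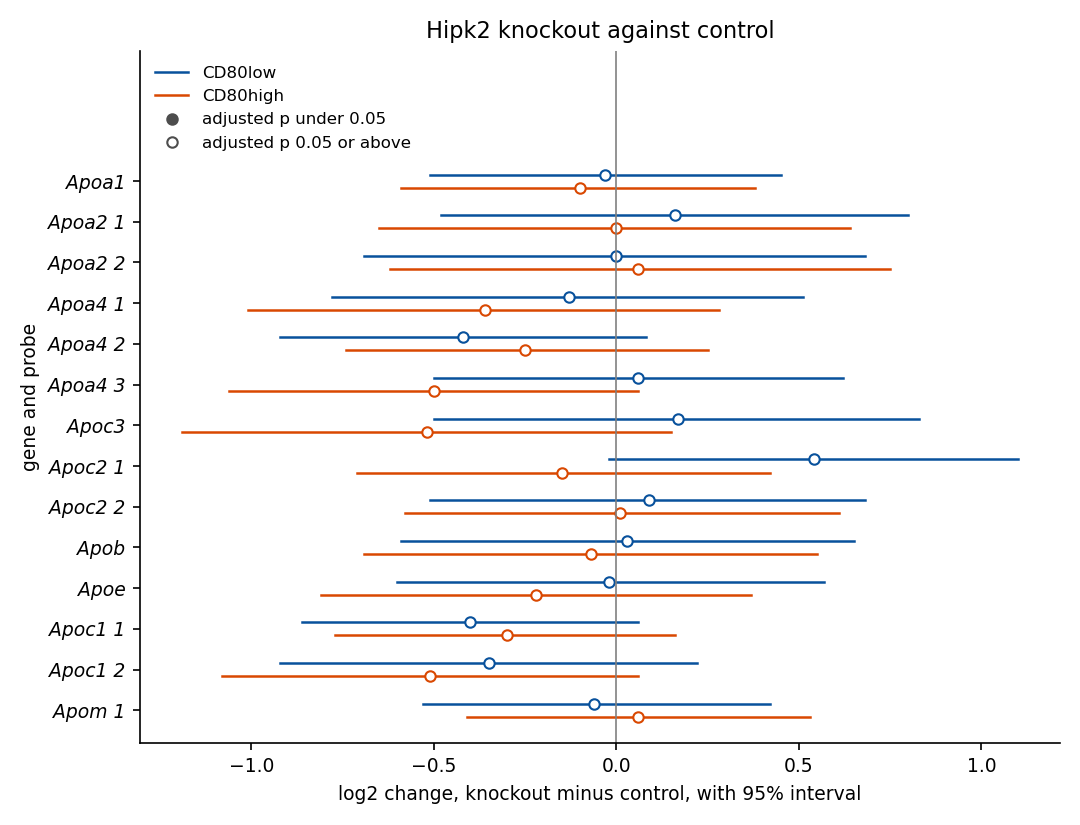
Log2 change between knockout and control cells for each tested apolipoprotein probe, with 95% intervals, in CD80low and in CD80high cells. All changes lie between -0.52 and 0.54, and every interval reaches 0.

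Whether the genotype difference itself differed between CD80low and CD80high cells was tested as an interaction. No member passed, and 0 of all 24208 probes did (0%), with 818 probes and 0 apolipoprotein probes at an unadjusted p under 0.05. The member values ran from -0.69 for Apoc3 to 0.17, followed from below by Apoc2 at -0.68 (unadjusted p 0.136 and 0.0847).

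Genes that act on lipoproteins are given by list, beside the share of all tested probes, 18.2% higher and 18% lower in control and 17.9% and 17.4% in knockout cells. The lists count 1 probe a gene, whereas these shares count every tested probe. The median of all tested probes was -0.06 in control and -0.07 in knockout cells. Some genes passed the background filter only through CD80high arrays, which favours higher values there. The number of such genes therefore stands beside each count. Of 17 other apolipoproteins and related genes on the array, 9 were tested, 3 of them only through their CD80high arrays. In control cells 6 were higher and 1 lower (66.7% and 11.1%), with a median log2 change of 1.33, and in knockout cells 6 and 1, with a median of 1.76. Apol11b was at least 24.4-fold higher in control CD80high cells. Apobr, a receptor of Apob-bearing particles, changed by 2.79, and Apobec1, the enzyme that edits Apob mRNA, by 2.62.

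Receptors are set beside the share of all tested probes called in either direction. Of 12 tested, 0 only through CD80high arrays, 2 were higher and 3 lower in control cells (41.7% called, against 36.1% of all tested probes, median 0.16) and 3 and 3 in knockout cells (50% against 35.3%, median -0.15). Vldlr, a receptor that binds Apoe, changed by -2.35, and Lrp8, another receptor of Apoe, by 2.17 in control cells. Amn, the partner of cubilin, rose by 1.76, and Lrpap1, a receptor chaperone, changed by -0.83. Of 9 lipases and plasma modifiers, 1 tested only through CD80high arrays, 2 were higher and 3 lower in control cells (22.2% and 33.3%, median -0.02) and 1 and 2 in knockout cells (11.1% and 22.2%, median 0.15). Pltp, which transfers phospholipid onto high-density lipoprotein, changed by -2.56 and Angptl4, an inhibitor of lipoprotein lipase, by -2.96. Lpl, the lipase that Apoc2 activates and Apoc3 inhibits, rose by 1.31 (adjusted p 0.000547). Pon1, an esterase of high-density lipoprotein at background in all CD80low arrays, was at least 1.16-fold higher in control cells and did not pass in knockout cells (adjusted p 0.392).

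Of 13 tested genes of particle assembly and lipid export, 4 only through CD80high arrays, 8 were higher and 0 lower in control cells (61.5% higher, median 0.96) and 9 and 0 in knockout cells (69.2% higher, median 0.80). The sterol exporter genes Abcg5 and Abcg8 rose by 3.82 and 1.68 on the log2 scale in control cells, Abcg8 with 1 of 2 CD80low arrays above background. Dgat2, which makes triglyceride, rose by 3.62. Mogat2, which makes its precursor and was at background in all CD80low arrays, was at least 1.94-fold higher in control cells. Mttp, which loads lipid onto Apob and was picked after its values were seen, was at least 1.82-fold higher in control cells (adjusted p 0.002).

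Transcription factors known to act on apolipoprotein genes were called about as often as tested probes in general. Of 16 tested, 2 only through CD80high arrays, 4 were higher and 2 lower in control (37.5% called, against 36.1% of all tested probes, median 0.22) and 4 and 1 in knockout cells (31.2% against 35.3%, median 0.20). In control cells Pparg rose by 1.85 and Foxa1 by 1.68, and Prox1 changed by -1.10 (adjusted p 0.00146). Creb3l3, at background in all CD80low arrays, was at least 1.58-fold higher in control cells and changed by 0.20 in knockout cells (adjusted p 0.466). Hnf4a, a liver and gut regulator also picked after its values were seen, changed by 0.33 and 0.19 (adjusted p 0.233 and 0.508). Between genotypes no gene of these lists passed, in either population or in their average, where 1 probe of all tested passed.

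**Figure D5:**
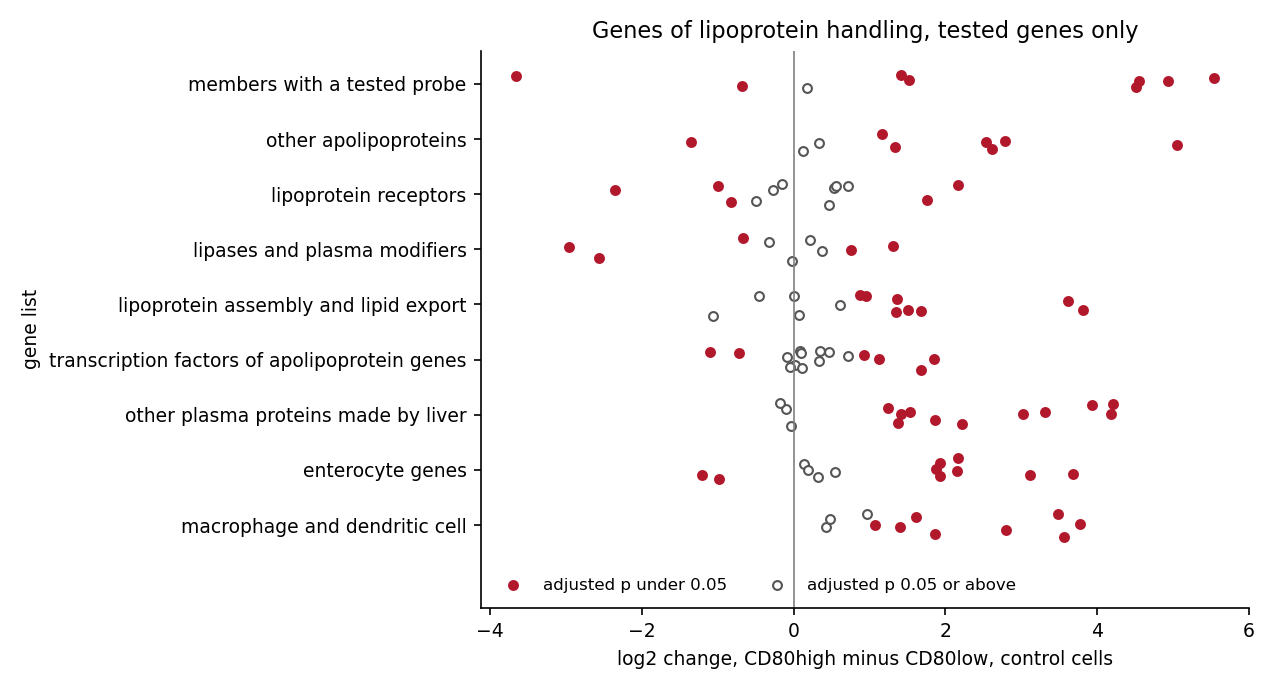
Log2 change between CD80high and CD80low control cells for the tested apolipoprotein genes and for each list of related genes, 1 point a gene; filled points had an adjusted p under 0.05. Lipoprotein assembly genes that passed lie to the right of 0, and receptors and lipases lie on both sides, from -2.96 to 2.17.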

How the data were processed

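The authors deposited a table of linear intensities from Illumina bead arrays, normalised by a method not given in the sources used here, with array means nearly equal and no background subtracted. Per the labels, total RNA of sorted mTECs was amplified into biotin-labelled cRNA. A second deposited table has 16 value columns that no label ties to a sample, and it was not used. Gene symbols came from the platform annotation: 35667 of 46089 probes had 1 symbol, 0 had several and 10422 had none.

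Intensities were background-corrected with normexp (offset 16), quantile-normalised over the 8 arrays and put on the log2 scale. A probe was tested if both arrays of at least 1 group exceeded that array's background mode plus 1.645 SD (24208 probes, 52.5%). Group means were fitted in limma 3.58.1 (R 4.3.3) with no covariate, and p-values were adjusted by Benjamini-Hochberg over all tested probes, with 0.05 as threshold. The fit had 4 residual degrees of freedom and 6.12 prior ones, and was tested on simulated data. A gene's call is that of its brightest tested probe. Where no array of the dimmer group was above background, a fold is a lower bound taken from the lowest signal above background. Such a bound leaves out the spread between arrays, and both groups' measured means were kept beside it.

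All members were named. Of each other list, up to 4 genes with the smallest p in a comparison could be named, as could the 3 genes most alike to a member. Members, lists and tests were chosen with earlier results of these data known. Alternatives covered background correction, normalisation, filter, variance prior, probe choice, arrays in the fit, a replicate block and each array left out; leaving out both CD80low arrays numbered 1 and a block within each population were added after seeing the data.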

Additional observations from a re-analysis of the deposited data

How the results depend on the processing

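Over 19 alternatives, 7 to 8 apolipoprotein genes passed between CD80high and CD80low control cells (8 as reported) and 6 to 8 in knockout cells (7 as reported). Between genotypes, and for the interaction, 0 passed in each alternative run, and no called member reversed. The calls that changed were those of Apoc1 and Apoc2. Apoc1 lost its control call in 5 alternatives, among them no filter (adjusted p 0.0549) and a block within each population (0.0906), and gained the knockout call in 7. Apoc2 lost its knockout call in 8, among them no filter (adjusted p 0.072). The labels do not say that a replicate number marks shared animals or days. Same-numbered arrays deviated together within CD80low (r 0.524) and within CD80high (r 0.44), and less so across them (r 0.0778 to 0.125). With the replicate block, 8 genes passed in control and 8 in knockout cells, and 0 between genotypes. Counts over all probes moved more: from 1 to as many as 16 between genotypes in CD80low cells (block within each population), from 1 to 15 in the average (trended prior), from 0 to 7 for the interaction (without both CD80low arrays numbered 1), and in the control population contrast from 8744 to 5717 without control CD80high replicate 1 and 5788 without control CD80high replicate 2. Adjusting over 1 probe a gene gave 6005 and 5886 genes in the control and knockout population contrasts. Fewer than 2 arrays above background in CD80low cells of at least 1 genotype limit the folds of Apoa2, Apoa4, Apob, Apoc2, Apoc3 and Apom.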

Other observations

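Liver and gut, which make most apolipoproteins, have other typical genes, counted here between CD80high and CD80low cells. Of 19 plasma protein genes of liver on the array, 14 were tested, 3 of them only through their CD80high arrays, which favours higher values there. The other 5, Alb, Fgb, Plg, Serpina1a and Serpinc1, were not tested. In control cells 11 were higher and 0 lower (78.6% higher, against 18.2% of all tested probes), with a median log2 change of 1.70, and in knockout cells 10 and 0 (71.4% against 17.9%), with a median of 1.92. The medians of all tested probes were -0.06 and -0.07. The kininogen Kng1 changed by 4.19 in control cells. Itih3 and Itih1, chains of inter-alpha-trypsin inhibitor, and the fibrinogen chain Fga were at background in all CD80low arrays and were at least 11.3-fold, 6.59-fold and 5.78-fold higher in control CD80high cells. Of 13 tested enterocyte genes, 4 only through CD80high arrays, 7 were higher and 2 lower in control cells (53.8% and 15.4%, against 18.2% and 18%, median 1.88) and 9 and 2 in knockout cells (69.2% and 15.4%, against 17.9% and 17.4%, median 1.35). The gut transcription factors Cdx1 and Cdx2 rose by 3.68 and 1.93, the brush border enzyme Sis by 3.11 and the gut lectin Lgals4 by 2.17 in control cells. Between genotypes none of these genes passed in limma, and the smallest adjusted p was 0.263, in CD80low cells.

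Away from the 2 clusters, the neighbours of single apolipoprotein genes did not share one direction. Klhl29 next to Apob changed by -1.10 (adjusted p 0.00261) and Ldah on its other side by -0.04 (adjusted p 0.885) in control cells. Both neighbours of Apoh, Prkca and Cep112, rose by 1.26 and 1.30, while Apoh was not well above background. Bag6 next to Apom changed by -0.59 (adjusted p 0.0335).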
